A study of Mus musculus with 6 samples.

Results

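Mucin transcripts were measured by poly(A) RNA sequencing in the small intestine of C57BL/6 mice, all 12 weeks old. Of 10 mucin symbols (Muc1, Muc2, Muc3, Muc4, Muc5ac, Muc5b, Muc6, Muc13, Muc16 and Muc20), 8 matched a row among the 23393 named gene rows of the count table by exact symbol, and Muc3 and Muc16 are not analysed here. The WT intestine group (n = 3 mice) consisted of mice that lacked Villin-Cre and carried floxed PKClambda and PKCzeta alleles. The DKO tumour group (n = 3 mice) consisted of small intestinal tumours from mice with the same floxed alleles and Villin-Cre, a recombinase driven by a promoter active in intestinal epithelium. Both groups therefore carried the floxed alleles, and genotype and tissue type changed together, so their parts cannot be told apart.

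Mucins are large glycoproteins whose long stretches rich in serine, threonine and proline carry dense O-linked sugar chains. The gel-forming mucins Muc2, Muc5ac, Muc5b and Muc6 are secreted and build mucus, whereas Muc1, Muc4, Muc13 and Muc20 are anchored in the apical membrane and form the glycocalyx of epithelial cells. In the small intestine Muc2 is the product of goblet cells and Muc13 that of enterocytes and goblet cells, while Muc5ac is the mucin of gastric surface cells and Muc6 that of gastric and duodenal (Brunner) glands.

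Library totals over named genes ranged from 12491561 to 15799269 counts. Levels are CPM, depth-scaled counts with edgeR's TMM factors, and 1 count was worth between 0.0595 and 0.0944 CPM. Of the targeted genes, Prkcz was at 70.0, 69.7 and 60.8 CPM in WT intestine 1 to 3 and at 19.3, 16.4 and 14.7 CPM in DKO tumours 1 to 3, whereas Prkci was at 53.2 to 80.6 CPM and 80.3 to 103 CPM over whole-gene counts. The summed level of 10 enterocyte genes, which mark the labelled tissue, was 46178 to 77161 CPM in WT libraries and 26544 to 32707 CPM in tumours. DKO tumour 1 stood apart in markers of other tissues. Its summed level of 10 pancreatic acinar genes was 783 CPM, against 4.80 to 8.50 CPM in WT libraries and 32.5 and 35.0 CPM in DKO tumours 2 and 3. Cela1 alone gave 32.0 and 34.9 CPM of the sums of DKO tumours 2 and 3 and 4.48 to 8.40 CPM of the WT sums. Of the 10 genes, 3 (Cela3b, Pnlip and Amy2b) were at 0 in all libraries other than DKO tumour 1. Some gut position markers also differed. The duodenal iron transporter gene Cybrd1 stood at 6.80, 6.21 and 5.97 CPM in the WT libraries, and DKO tumours 1 to 3 held 2187, 11.9 and 459.6 CPM. The ileal bile acid binding gene Fabp6 was at 71.7 CPM in DKO tumour 2 and at most 0.535 CPM elsewhere.

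The mucin genes of the intestine proper went down or did not pass the test, and mucins of glands and ducts appeared mainly in 1 tumour. Of the 8 mucins, 3 (Muc2, Muc4 and Muc13) had at least 10 counts in 3 or more libraries and were tested. Muc13 fell and none of the 3 rose, where 13.8% of the 13866 genes tested fell and 15.9% rose at an edgeR Benjamini-Hochberg adjusted p under 0.05. Muc1, Muc5ac, Muc5b, Muc6 and Muc20 had too few counts for the test and are described by their counts. Tumours and WT libraries did not overlap for 1 of the 3 tested mucins, as for 48% of genes tested, and 1 of the 3 (Muc4) was highest in DKO tumour 1, as were 13.5% of genes tested. Of the 5 untested mucins, Muc1, Muc5b, Muc6 and Muc20 had their highest level in DKO tumour 1, as did 22% of the genes with a count that were not tested.

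**Figure D1:**
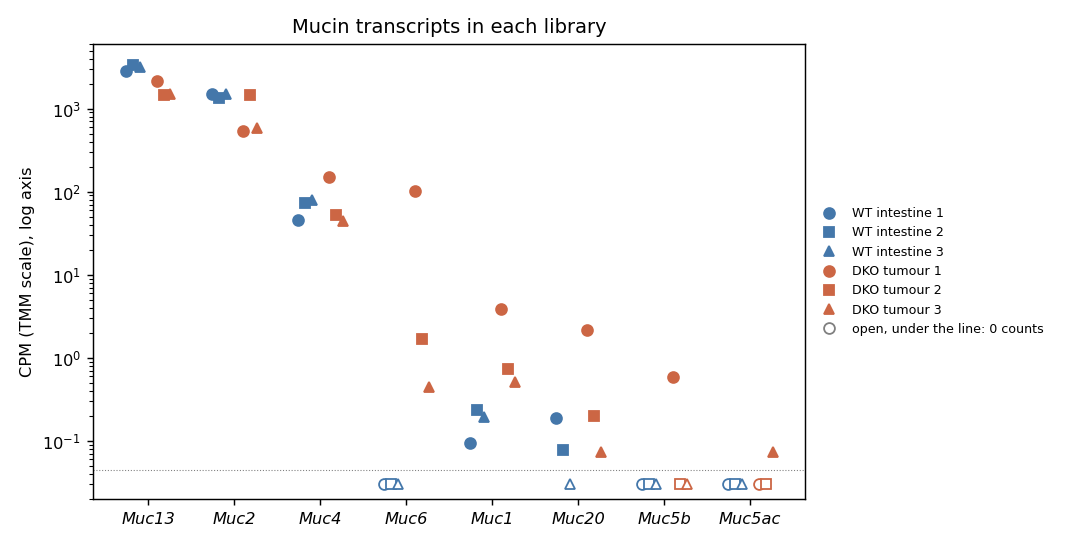
Level of each mucin transcript in each library, in CPM on a log axis. Blue symbols are the 3 WT intestine libraries, orange symbols the 3 DKO tumours, and open symbols under the dotted line are libraries with 0 counts. Muc13 lies lower in all 3 tumours (1439 to 2160 CPM) than in WT libraries (2869 to 3382 CPM), Muc2 is lower in DKO tumours 1 and 3 only, and Muc6 reaches 103 CPM in DKO tumour 1.

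The 4 gel-forming mucin genes lie side by side on chromosome 7 (GRCm38, the build of the files, with GENCODE M21 genes). Muc6 (141633456 to 141655319, minus strand) and Muc2 (141690340 to 141754693, plus strand) are transcribed away from each other across a gap of 35.0 kb. Muc5ac (141788972 to 141819231) and Muc5b (141839070 to 141873084) follow Muc2 on the plus strand after gaps of 34.3 and 19.8 kb. The 250 bases before the start of Muc6 and Muc2 are shown because these neighbours took different courses in the tumours, and those of Muc13 and Muc1 because they are the membrane mucins with tumours wholly below and wholly above WT libraries. The sequences are from RefSeq (GRCm38.p6) and run 5′ to 3′ on the gene's strand: Muc6 chr7:141655394-141655643 (minus), Muc2 chr7:141690090-141690339 (plus), Muc13 chr16:33793787-33794036 (plus) and Muc1 chr3:89228806-89229055 (plus).
Muc6: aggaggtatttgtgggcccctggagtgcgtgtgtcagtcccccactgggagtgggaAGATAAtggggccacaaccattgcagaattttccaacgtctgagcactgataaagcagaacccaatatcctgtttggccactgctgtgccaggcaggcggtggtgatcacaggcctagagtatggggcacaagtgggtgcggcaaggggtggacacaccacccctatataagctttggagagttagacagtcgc
Muc2: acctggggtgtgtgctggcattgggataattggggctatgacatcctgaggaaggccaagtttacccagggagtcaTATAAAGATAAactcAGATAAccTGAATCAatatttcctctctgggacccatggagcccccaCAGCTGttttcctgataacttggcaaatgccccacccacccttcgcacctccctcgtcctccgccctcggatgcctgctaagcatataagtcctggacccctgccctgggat
Muc13: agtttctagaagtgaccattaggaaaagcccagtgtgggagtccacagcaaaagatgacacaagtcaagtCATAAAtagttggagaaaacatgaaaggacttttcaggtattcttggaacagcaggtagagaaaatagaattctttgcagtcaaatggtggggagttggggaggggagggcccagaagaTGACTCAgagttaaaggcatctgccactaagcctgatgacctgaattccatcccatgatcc
Muc1: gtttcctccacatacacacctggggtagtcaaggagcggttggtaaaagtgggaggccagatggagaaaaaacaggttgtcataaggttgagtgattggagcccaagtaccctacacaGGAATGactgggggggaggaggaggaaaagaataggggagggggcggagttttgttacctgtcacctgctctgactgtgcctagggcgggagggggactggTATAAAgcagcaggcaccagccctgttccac
Capitals mark matches, on either strand, to 6 motifs searched in all 32851 RefSeq windows of the same length. The TATA box TATAAA occurred in 12.4% of those windows, and the CDX motif TTTATG in 10.8%. The GATA motif AGATAA occurred in 10% and the TEAD motif GGAATG in 12.6%. The AP-1 motif TGANTCA occurred in 6.7%, and the ATOH1 E-box CAGCTG in 13.0%. The Muc6 window held 1 GATA match. That of Muc2 held 1 TATA box, 2 GATA, 1 AP-1 and 1 E-box match, with the TATA box and the first GATA match overlapping. The Muc13 window, before the first of its RefSeq starts, held 1 CDX (on the other strand) and 1 AP-1 match, and that of Muc1 held 1 TATA box and 1 TEAD match. A match is a run of letters and not a binding site.

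Muc13 was the most abundant of the 4 membrane mucins with a row, in all 6 libraries, and it fell in DKO tumours. Muc13 (chromosome 16, 33794037 to 33819934) was at 2869, 3382 and 3137 CPM in WT intestine 1 to 3 and at 2160, 1439 and 1485 CPM in DKO tumours 1 to 3. Every tumour was below every WT library, as in 22.9% of genes tested. WT libraries averaged 3129 CPM (SD 257, n = 3) and tumours 1694 CPM (SD 404, n = 3). The log2 fold change was -0.88 with a standard error (SE) of 0.233 (edgeR adjusted p = 0.0252). In bulk tissue, fewer cells of a type and less RNA per cell cannot be told apart. The call ended without WT intestine 2 (edgeR adjusted p = 0.101), WT intestine 3 (0.0702), DKO tumour 2 (0.0807) or DKO tumour 3 (0.122), and when library totals replaced TMM (0.0732), while the log2 fold change stayed between -1.09 and -0.63 in these refits and in those without WT intestine 1 or DKO tumour 1.

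Ratios of Muc13 to other epithelial genes of the same library do not depend on scaling, and they differed by the gene chosen. Relative to Cdh1, which encodes E-cadherin, Muc13 counts were 3.42, 4.10 and 3.93 times as many in WT intestine 1 to 3 and 2.16, 1.16 and 1.51 times as many in DKO tumours 1 to 3, with no overlap. Relative to the keratin gene Krt8 the ratios were 0.936, 1.36 and 1.26 in WT and 0.768, 0.296 and 0.337 in tumours, again with no overlap. Relative to Epcam, an epithelial adhesion molecule gene, they were 1.01, 1.29 and 1.39 in WT and 1.19, 0.771 and 0.91 in tumours, and relative to the brush border gene Vil1 they were 0.78, 1.14 and 1.06 in WT and 1.86, 0.798 and 0.925 in tumours, so both of these overlapped. Relative to the tight junction gene Cldn7 they were 2.81 to 4.31 in WT and 3.84, 1.73 and 2.21 in tumours, which overlapped too. The groups were thus apart for Cdh1 and Krt8 and overlapped for the other 3 of these 5 genes.

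Muc2, the main gel-forming mucin of intestinal goblet cells, was split among the tumours. It was at 1488, 1342 and 1514 CPM in WT intestine 1 to 3 and at 532, 1445 and 586 CPM in DKO tumours 1 to 3. DKO tumours 1 and 3 were below all WT libraries and DKO tumour 2 was within their range. The log2 fold change was -0.76 (SE 0.378, edgeR adjusted p = 0.164), and it became -1.36 (SE 0.209, edgeR adjusted p = 0.00457) without DKO tumour 2. The tumour with WT-like Muc2 was the one that held the ileal gene Fabp6 (71.7 CPM) and the ileal bile acid transporter Slc10a2 (46.7 CPM, against at most 2.66 CPM elsewhere), and the tumours with low Muc2 held 2187 and 459.6 CPM of the duodenal gene Cybrd1. Other duodenal and ileal markers did not all go with this split. Slc40a1, Pdx1 and Dmbt1 were lowest of the tumours in DKO tumour 2, as Cybrd1 was. Tm4sf4 was highest there (420, 911 and 804 CPM in DKO tumours 1 to 3), Gata4 was at 122, 112 and 154 CPM, and Gkn3 was high in DKO tumour 1 only. Of the ileal markers, Guca2a and Osr2 were clearly highest in DKO tumour 2, while Bglap3 was at 4.52, 10.2 and 9.62 CPM. The part of gut position in the spread of Muc2 was not tested.

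Some other goblet cell genes were lower in all 3 tumours, DKO tumour 2 with its WT-like Muc2 included. Of 12 goblet markers, 5 fell (41.7%, against 13.8% of genes tested) and 1, Galnt12, rose (8.33%, against 15.9%). The 12 markers had a median log2 fold change of -0.46 against 0.016 over all genes tested. Leaving out DKO tumour 3 gave 2 falls and leaving out DKO tumour 2 gave 7, and no marker rose when any 1 of WT intestine 2, WT intestine 3, DKO tumour 1 and DKO tumour 2 was left out. Zg16, a lectin of the mucus layer, was at 2937, 2854 and 2778 CPM in WT libraries and at 718, 1173 and 689 CPM in tumours (log2 fold change -1.73, SE 0.257, edgeR adjusted p = 0.00284). Spink4, a secreted peptide of goblet cells, fell by 1.77 (SE 0.323, edgeR adjusted p = 0.00648) on the log2 scale. The trefoil peptide Tff3 was at 913 to 1234 CPM in WT libraries and 466 to 646 CPM in tumours (edgeR adjusted p = 0.012), and Clca1, a goblet cell metalloprotease, at 23.7 to 36.4 CPM and 12.7 to 18.0 CPM (edgeR adjusted p = 0.0148). Without DKO tumour 3 the calls of Tff3 (0.0691) and Clca1 (0.0671) ended.

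In a second set of goblet genes DKO tumour 2 lay within or above the WT range. It was the highest tumour for these genes, as it also was for Zg16, Tff3 and Clca1, but not for Spink4. Fcgbp, a large mucus protein that associates with Muc2, was at 3355, 2646 and 3464 CPM in WT libraries and at 1754, 3351 and 2521 CPM in DKO tumours 1 to 3 (edgeR adjusted p = 0.426). Spdef, a transcription factor of goblet cell maturation, was at 23.6, 19.2 and 25.0 CPM in WT libraries and at 17.9, 34.7 and 15.2 CPM in tumours, and Bcas1 at 38.0 to 45.6 CPM and at 20.9, 55.0 and 26.9 CPM. Spdef and Bcas1 were higher in DKO tumour 2 than in any WT library, whereas Fcgbp was within the WT range there. The count ratio of Muc2 to Zg16 was 0.507, 0.47 and 0.545 in WT libraries and 0.74, 1.23 and 0.851 in tumours, so Zg16 was lower relative to Muc2 in every tumour. The ratio of Muc2 to Spdef was 63.1, 69.7 and 60.6 in WT libraries and 29.7, 41.7 and 38.6 in tumours, without overlap in the opposite direction. The ratio of Muc2 to Fcgbp was 0.444, 0.507 and 0.437 in WT libraries and 0.303, 0.431 and 0.232 in tumours. Muc2 was thus lower relative to Fcgbp in DKO tumours 1 and 3, and DKO tumour 2 was only just below the lowest WT value. The ratios of Muc2 to Tff3, Agr2, Spink4, Clca1 and Atoh1 overlapped between the groups. Agr2, a disulphide isomerase that mouse goblet cells need to assemble Muc2, was at 360.2 to 484 CPM in WT libraries and at 307, 378 and 184 CPM in tumours (edgeR adjusted p = 0.127). The ratios and this grouping were chosen after the values were seen.

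**Figure D2:**
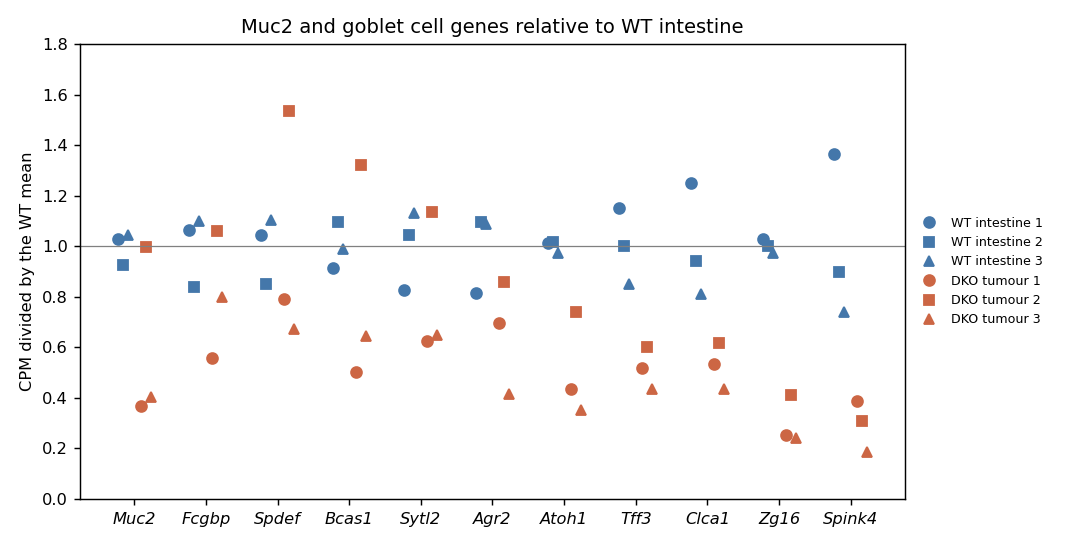
Level of Muc2 and of 10 of the 12 goblet markers in each library, as CPM divided by the mean of the 3 WT libraries (grey line at 1). Galnt12 (log2 fold change 0.52, rose) and Ern2 (0.25, not called) of the same list are not shown, and both went the other way. Blue symbols are WT intestine and orange symbols DKO tumours. In DKO tumour 2 (squares) Muc2 and Fcgbp lie within the WT range, Sytl2 just above it and Spdef and Bcas1 clearly above it, and all 5 are lower in DKO tumours 1 and 3, whereas Tff3, Clca1, Zg16 and Spink4 lie below all WT libraries in every tumour.

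Muc6, the mucin of gastric and Brunner glands, was found in tumours only and almost wholly in DKO tumour 1. It had 0 counts in each WT library, which allows up to 0.283, 0.236 and 0.195 CPM in WT intestine 1 to 3 (3 counts, counting error only). The tumours held 1730, 25 and 6 counts, or 103, 1.68 and 0.444 CPM. All 3 tumours were above all WT libraries, as in 9.07% of the genes with a count that were not tested. On counts pooled over each group Muc6 was at least 503-fold higher in tumours against a floor of 3 counts over the WT group, and at least 14.1-fold higher without DKO tumour 1. In DKO tumour 1 Muc6 made up 16.2% of the counts of the 4 gel-forming mucins, and in DKO tumours 2 and 3 0.116% and 0.0757%.

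Other gland and gastric genes were high in the same tumour. Tff2, the trefoil peptide made with Muc6 in mucous glands, was at 293 CPM in DKO tumour 1 and at 0 to 1.18 CPM in the other 5 libraries. Gkn3, a gastrokine of gastric mucous neck cells, was at 197 CPM in DKO tumour 1 and at 0.74 to 1.81 CPM elsewhere. A4gnt, which adds the terminal sugar typical of gland mucin, was at 3.21, 5.89 and 5.84 CPM in WT libraries and at 6.19, 0.939 and 0.814 CPM in tumours, overlapping (edgeR adjusted p = 0.371), and its log2 fold change was -2.49 (edgeR adjusted p = 0.00493) without DKO tumour 1. Of 9 mucous neck and Brunner gland markers, 7 were tested. Of these, 3 were called higher (42.9%, against 15.9% of genes tested) and 1 lower (14.3%, against 13.8%), and 1 or 2 were called higher with a library left out. Aqp5 and Wfdc18, 2 of the 3 called higher, passed the filter on low counts only through the tumours and could not be tested without any 1 of them, so their calls support nothing. The summed level of the 9 markers was 244 to 291 CPM in WT libraries and 984, 303 and 412 CPM in DKO tumours 1 to 3. Cftr, a channel that other epithelial cells also make, gave 181 to 205 CPM of the WT sums and 338, 258 and 359 CPM of the tumour sums. Lyz2, A4gnt and Bhlha15 were lower in DKO tumours 2 and 3 than in any WT library. DKO tumour 1 was also the library with 2187 CPM of the duodenal gene Cybrd1 and with pancreatic acinar transcripts, among them Ctrb1 at 180 CPM (at most 0.157 CPM elsewhere) and Prss2 at 72.9 CPM. The part of these tissues in the Muc6 level was not tested.

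**Figure D3:**
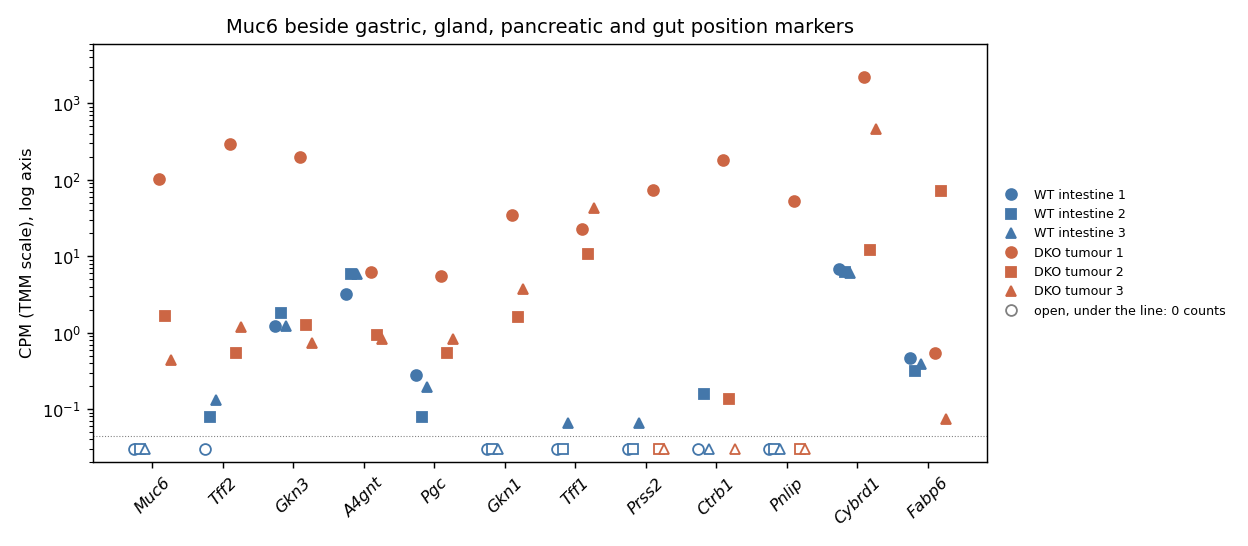
Level of Muc6 beside markers of mucous glands (Tff2, Gkn3, A4gnt, Pgc), gastric surface cells (Gkn1, Tff1), pancreatic acinar cells (Prss2, Ctrb1, Pnlip), duodenum (Cybrd1) and ileum (Fabp6), in CPM on a log axis. Symbols are as in the plot of all mucins, with open symbols for 0 counts. Muc6, Tff2, Gkn3 and the pancreatic genes peak in DKO tumour 1, Tff1 is raised in all 3 tumours, and Fabp6 peaks in DKO tumour 2.

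Muc5ac and Muc5b, the other gel-forming mucins, were close to absent. Muc5ac, the mucin of gastric surface cells, had 1 count in all 6 libraries together, in DKO tumour 3 (0.074 CPM), and the 0 counts of the other 5 libraries allow up to 0.178 to 0.283 CPM each. The gastric surface genes Tff1 (22.4, 10.7 and 42.3 CPM in DKO tumours 1 to 3, at most 0.0649 CPM in WT libraries) and Anxa10 (475, 266 and 472 CPM, at most 0.189 CPM in WT libraries) were high in the same tumours. The summed level of 9 gastric surface markers was 35.4 to 39.4 CPM in WT libraries and 849, 374 and 677 CPM in tumours. Anxa10 alone made up the larger part of each tumour sum, and Capn8 and Capn9 most of each WT sum. Vsig1, Ctse, Gkn1 and Gkn2 were also above all WT libraries in every tumour. Capn8 and Psca overlapped between the groups, and Capn9 was lower in tumours (12.1 to 17.6 CPM) than in WT libraries (18.8 to 28.3 CPM). Muc5b, a mucin of airways and glands, had 10 counts (0.595 CPM) in DKO tumour 1 and 0 in each of the other libraries, so with that tumour left out no Muc5b count remained. Transcripts of some gastric surface markers were therefore raised in all 3 tumours with Muc5ac at or under 1 count. The gene model that the authors counted for Muc5ac is not given in the sources used here.

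Muc4, a large membrane mucin with domains like those of epidermal growth factor, was highest in DKO tumour 1 and did not pass the test. Muc4 (chromosome 16, 32735886 to 32782391) was at 45.5, 73.0 and 80.2 CPM in WT intestine 1 to 3 and at 148, 52.6 and 44.0 CPM in DKO tumours 1 to 3. DKO tumour 1 was above all other libraries, and DKO tumours 2 and 3 lay within or just below the WT range. The log2 fold change was 0.30 (SE 0.451, edgeR adjusted p = 0.643), and without DKO tumour 1 it turned to -0.45 (edgeR adjusted p = 0.211). Relative to Muc13 counts of the same library, Muc4 was at 0.0159, 0.0216 and 0.0256 in WT libraries and at 0.0687, 0.0365 and 0.0297 in tumours, with every tumour above every WT library. Relative to Epcam counts the tumours (0.0815, 0.0282 and 0.027) overlapped the WT libraries (0.0161 to 0.0356).

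**Figure D4:**
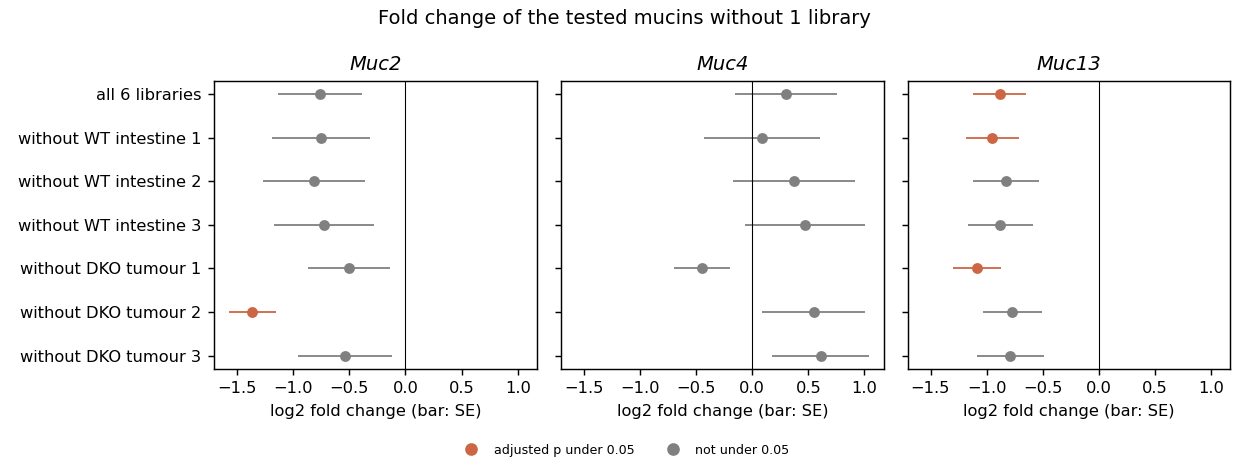
Log2 fold change of Muc2, Muc4 and Muc13 (DKO tumour over WT intestine, bars are the SE) with all 6 libraries and with each library left out in turn. Orange points passed an edgeR adjusted p of 0.05 and grey points did not. Muc2 passes only without DKO tumour 2, Muc4 changes sign without DKO tumour 1, and Muc13 is below 0 throughout and passes in 2 of the 6 refits.

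Muc1, a membrane mucin of ducts and glands, was a low transcript that was higher in every tumour. Muc1 (chromosome 3, 89229057 to 89233381) had 1, 3 and 3 counts in WT intestine 1 to 3 and 65, 11 and 7 counts in DKO tumours 1 to 3. On the CPM scale this was 0.0944, 0.236 and 0.195 against 3.87, 0.738 and 0.518, without overlap. On pooled counts the ratio of tumours to WT was 10.2 (95% exact Clopper-Pearson interval 4.72 to 26.0, counting error only), and 3.50 (1.40 to 9.93) without DKO tumour 1. When the filter on low counts was dropped, Muc1 (edgeR adjusted p = 0.0315) and Muc6 (edgeR adjusted p = 0.0484) passed as rises beside the fall of Muc13 (edgeR adjusted p = 0.0279), where 11.9% of the 18311 genes rose.

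Muc20, a small membrane mucin, shares ground with Muc4, and its counts within the shared bases cannot be told apart from Muc4 reads. Muc20 (chromosome 16, 32777419 to 32797435, minus strand) overlaps the end of Muc4 (plus strand) over 627 of its 4027 exonic bases. The strand setting of the counting is not given in the sources used here. Muc20 had 2, 1 and 0 counts in WT libraries and 36, 3 and 1 counts in DKO tumours 1 to 3, the highest being the library with 2493 Muc4 counts. WT intestine 3, with 0 Muc20 counts, had 1237 Muc4 counts, and DKO tumour 2, with 3, had 784. The part of Muc4 reads in the Muc20 counts was not tested. The pooled ratio was 11.4 (95% exact interval 3.64 to 57.7), and 1.82 (0.307 to 12.4) without DKO tumour 1. The ratio was 24.9 (4.22 to 1007) without WT intestine 1 and 6.87 (2.19 to 34.7) without WT intestine 3.

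Levels can be compared between mucins only per length, and on that scale the order was Muc13, Muc2 and Muc4 in all WT libraries. Per kilobase of annotated exon, Muc13 was at 944 to 1113 CPM in WT libraries and at 711, 474 and 489 CPM in DKO tumours 1 to 3. Muc2 was at 188 to 212 CPM per kilobase in WT libraries and at 74.6, 203 and 82.2 in tumours. Muc4 was at 3.87 to 6.82 in WT libraries and at 12.6, 4.47 and 3.75 in tumours, and Muc6 in DKO tumour 1 (11.0 CPM per kilobase) was close to Muc4 in the same library. The Muc2 model used here is fragmentary (7127 bases of merged exons, longest transcript 2926 bases). With the longest transcript as the length, Muc2 was 494 and Muc13 485 CPM per kilobase in DKO tumour 2, so the order of these genes in that tumour depends on the gene model.

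The balance of mucin transcripts differed from tumour to tumour. All 8 mucins together took 0.365%, 0.452% and 0.462% of the counts of WT intestine 1 to 3 and 0.328%, 0.32% and 0.229% of those of DKO tumours 1 to 3, so each tumour was below each WT library. Muc3 and Muc16 had no row and are not in these counts. Muc2 and Muc13 held 98.3% to 99.0% of the counts of the 8 mucins in WT libraries, 98.1% and 97.9% in DKO tumours 2 and 3, and 91.3% in DKO tumour 1. The gel-forming mucins held 33.8%, 28.0% and 32.0% of mucin counts in WT libraries and 21.5%, 49.2% and 27.7% in DKO tumours 1 to 3. DKO tumour 2 was thus the library with the largest share of secreted mucin and DKO tumour 1 the one with the smallest.

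Tandem repeats limit where reads can be placed in some mucins. In the longest annotated transcript, 21.6% of all 75-base windows (the read length) of Muc5ac recurred within the transcript, as did 18.5% in Muc5b, 12.6% in Muc13, 9.37% in Muc6 and 4.08% in Muc4. Muc1, Muc2 and Muc20 had no such window, the repeat region of Muc2 being outside the fragmentary model. No window of these 8 mucins occurred in the same direction in a transcript of another annotated gene. The opposite strand was not searched. There Muc4 and Muc20 share 627 exonic bases, and Muc13 shares 184 with the antisense gene Gm15657.

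The enzymes that build O-linked sugars on mucins changed in both directions. Of 29 tested genes of O-glycosylation, sulphation and sialylation, 8 rose (27.6%, against 15.9% of genes tested) and 5 fell (17.2%, against 13.8%), with a median log2 fold change of -0.06 against 0.016 over all genes tested. With library totals in place of TMM 11 rose and 3 fell, a scaling that moved the median of all genes to 0.27. Leaving out WT intestine 2 or DKO tumour 3 gave 2 falls, leaving out WT intestine 3 gave 3, and leaving out WT intestine 1 gave 8.

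The rises included enzymes of chain start, branching and capping. Fut2, a fucosyltransferase of intestinal surface sugars, was at 3.11, 4.16 and 3.18 CPM in WT libraries and at 32.5, 50.4 and 30.7 CPM in tumours (log2 fold change 3.44, SE 0.255, edgeR adjusted p = 2.00e-04). St6galnac6, a sialyltransferase, was at 4.09 to 6.04 CPM and 29.7 to 77.0 CPM (edgeR adjusted p = 0.000814), and Chst4, a sulphotransferase, at 15.7 to 19.1 CPM and 54.4 to 67.4 CPM (edgeR adjusted p = 0.000283). Galnt3, one of the enzymes that attach the first sugar, rose by 1.42 (SE 0.152, edgeR adjusted p = 0.00077) on the log2 scale. Gcnt1, which branches the core, rose by 2.60 (SE 0.499, edgeR adjusted p = 0.00779), or 1.87 without DKO tumour 2, and the sialic acid donor carrier Slc35a1 rose by 0.82 (SE 0.156, edgeR adjusted p = 0.00757). Galnt12 rose by 0.52 (SE 0.148, edgeR adjusted p = 0.0333). Of the refits without 1 library, 4 ended this call, namely those that left out WT intestine 2, WT intestine 3, DKO tumour 1 and DKO tumour 2 (edgeR adjusted p = 0.0535 to 0.125). The call also ended with replicate number as a block (edgeR adjusted p = 0.057).

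Among the falls were genes of sialylation and sulphate supply. St3gal4, a sialyltransferase, was at 1964 to 2352 CPM in WT libraries and at 648, 1003 and 737 CPM in tumours (log2 fold change -1.47, SE 0.228, edgeR adjusted p = 0.00333). Slc26a2, a sulphate transporter, fell by 1.00 (SE 0.164, edgeR adjusted p = 0.00421) on the log2 scale. C1galt1, the enzyme that extends the first sugar to the main intestinal core, was at 28.7, 57.6 and 56.0 CPM in WT libraries and at 65.7, 84.1 and 78.2 CPM in tumours, above all WT libraries but not past the threshold (edgeR adjusted p = 0.082, 0.0475 with library totals). Gcnt3, a branching enzyme of mucous cells, was at 177, 87.8 and 94.0 CPM and at 182, 229.6 and 197 CPM (edgeR adjusted p = 0.0663). It passed with library totals (0.0106), upper-quartile factors (0.044) and DESeq2 (0.0334), and when WT intestine 1 was left out (log2 fold change 1.15, edgeR adjusted p = 0.00366). B3gnt6, which starts the alternative core, was at 2.55 to 3.06 CPM in WT libraries and at 0.535, 2.61 and 0.888 CPM in tumours (edgeR adjusted p = 0.168, and 0.0114 without DKO tumour 2), again with DKO tumour 2 at the WT level. St6galnac1 was at most 0.629 CPM in any library and was not tested.

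**Figure D5:**
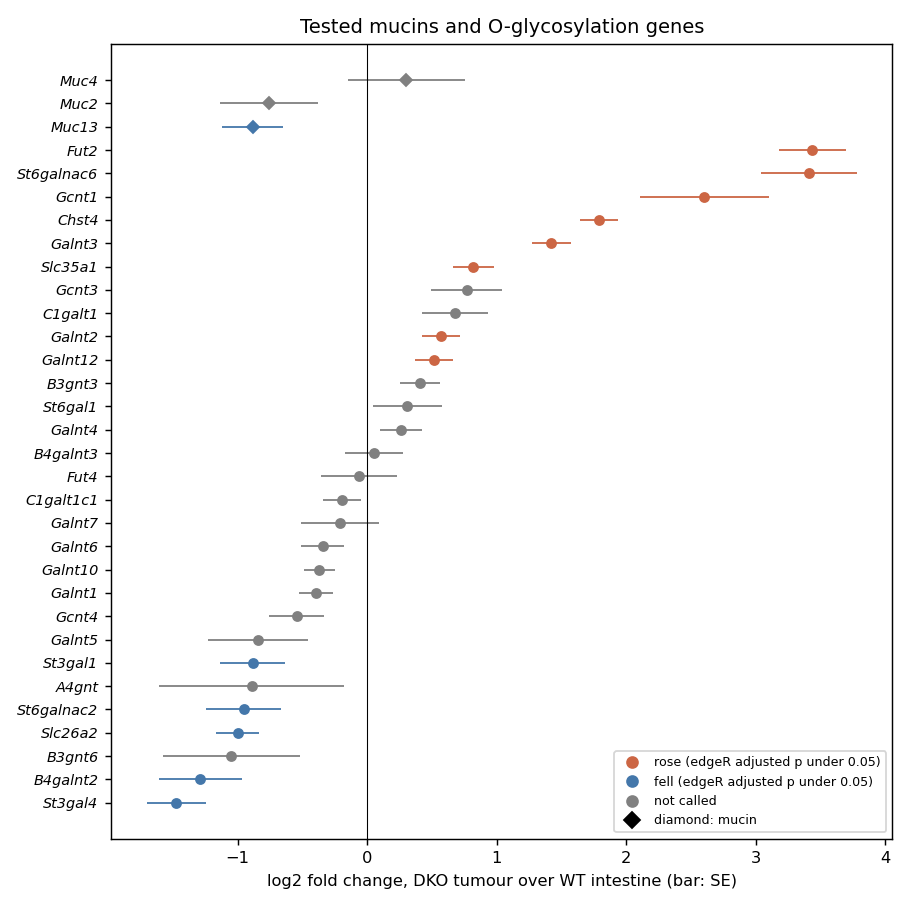
Log2 fold change (DKO tumour over WT intestine, bars are the SE) of the 3 tested mucins (diamonds) and the 29 tested genes of mucin O-glycosylation (circles). Orange genes rose and blue genes fell at an edgeR adjusted p under 0.05, and grey genes were not called. Fut2 and St6galnac6 lie at the upper end (3.44 and 3.41) and St3gal4 and B4galnt2 at the lower end (-1.47 and -1.29).

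Among genes that process mucus, or carry ions for its release and hydration, falls outnumbered rises. Of 18 tested partners of mucus, 9 fell (50%, against 13.8% of genes tested) and 2 rose (11.1%, against 15.9%), with a median log2 fold change of -0.93. Such falls were not particular to mucus partners. Of the 10 enterocyte markers, 6 fell (60%) and 0 rose, with a median log2 fold change of -1.37, and 2 fell without DKO tumour 3. The mucus partners had 6 falls when DKO tumour 3 was left out, and they had 0 rises without WT intestine 2 and 1 rise without WT intestine 3 or without any 1 of the tumours. Mep1b, the brush border protease meprin beta that cleaves Muc2 in the mouse small intestine, was at 1826, 1814 and 1786 CPM in WT libraries and at 579, 534 and 489.5 CPM in tumours (log2 fold change -1.76, SE 0.175, edgeR adjusted p = 0.000595). Slc9a3, a sodium-proton exchanger, fell by 1.55 on the log2 scale (SE 0.193, edgeR adjusted p = 0.0014). Nlrp6, a sensor linked to mucus secretion in mice, fell by 1.05 (SE 0.178, edgeR adjusted p = 0.00475), and Agr3, a relative of Agr2, fell by 2.14 (SE 0.405, edgeR adjusted p = 0.0073). Slc26a3, a chloride-bicarbonate exchanger, fell by 1.10 (SE 0.227, edgeR adjusted p = 0.0106), and the call ended without DKO tumour 3 (0.0502). Cftr, the chloride and bicarbonate channel, was one of the rises (log2 fold change 0.75, SE 0.169, edgeR adjusted p = 0.0144), and its call ended without WT intestine 2 (0.0679) or DKO tumour 3 (0.0672).

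Regulators of mucin genes and goblet cells changed in few cases. Of 23 tested, 2 rose (8.7%) and 4 fell (17.4%), near the 15.9% and 13.8% of genes tested, and with library totals 5 rose and 2 fell. Leaving out any 1 library other than DKO tumour 2 gave 2 falls, leaving out WT intestine 1 gave 3 rises, and leaving out DKO tumour 1 or DKO tumour 2 gave 1 rise. Atoh1, the factor that commits cells to the secretory lineage, was at 24.4 to 25.5 CPM in WT libraries and at 10.9, 18.6 and 8.81 CPM in tumours (log2 fold change -0.97, SE 0.265, edgeR adjusted p = 0.0285). That call held without DKO tumour 2 and ended without any other 1 library (edgeR adjusted p = 0.0561 to 0.0909) and with library totals (0.0752). Klf4, a factor of goblet cell differentiation, fell by 0.63 (SE 0.179, edgeR adjusted p = 0.0336), a call that held only without DKO tumour 2 among the refits without 1 library, and that ended with library totals (log2 fold change -0.37, edgeR adjusted p = 0.126). Gata5 fell by 1.31 (SE 0.209, edgeR adjusted p = 0.00372) and Hnf4g fell by 1.53 (SE 0.283, edgeR adjusted p = 0.00671) on the log2 scale.

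The regulators called higher were the forkhead factor Foxa1 and the duodenal and pancreatic factor Pdx1. Foxa1 was at 20.0 to 23.0 CPM in WT libraries and at 52.5, 83.3 and 50.6 CPM in tumours (log2 fold change 1.55, SE 0.214, edgeR adjusted p = 0.0021). Pdx1 was at 0 to 0.283 CPM in WT libraries and at 35.3, 1.27 and 13.4 CPM in DKO tumours 1 to 3 (edgeR adjusted p = 0.00992), the order of the tumours for Cybrd1. Pdx1 passed the filter on low counts only through the tumours and could not be tested without any 1 of them, so its call supports nothing. Cdx2, the intestinal homeobox factor known to drive Muc2, was at 258, 178 and 159 CPM in WT libraries and at 108, 176 and 148 CPM in tumours (edgeR adjusted p = 0.181). Hnf4a was at 883 to 1122 CPM and 832 to 1104 CPM (edgeR adjusted p = 0.892), and Sox2, a gastric factor, was at most 0.178 CPM in any library.

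Of 17 symbols of other mucins and mucin-like proteins, 10 had a row and 6 were tested, of which Mcam and Dpcr1 were called higher and 0 lower. Nothing is read from this count, since Dpcr1 passed the filter only through the tumours. Mcam, an adhesion protein also listed as Muc18 that is not a typical mucin, was at 14.0 to 18.0 CPM in WT libraries and at 26.0 to 30.8 CPM in tumours (log2 fold change 0.88, SE 0.157, edgeR adjusted p = 0.00587). Dpcr1, listed by RefSeq as Mucl3, had 0 counts in WT libraries and 543, 46 and 1360 counts in DKO tumours 1 to 3, an order of tumours unlike that of Muc6. It could not be tested without any 1 of the tumours. Emcn, Podxl, Cd164 and Ovgp1 were not called (edgeR adjusted p = 0.663, 0.87, 0.164 and 0.0944).

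The genes with the profile most like that of a mucin were sought among 10961 tested genes, by the root mean square difference of centred log2(CPM + 1) over the 6 libraries. For Muc2 they were Bcl2l15 (difference 0.0714), Dnpep (0.143) and Slc6a7 (0.16). For Muc13 they were Lace1 (0.0471), Eif4a2 (0.0724) and Dapp1 (0.0752). For Muc6 they were Gkn3 (0.592), Wfdc18 (0.922) and the pancreatic lipase relative Pnliprp1 (0.927), all highest in DKO tumour 1. For Muc4 they were Ces2b (0.142), Neto2 (0.157) and Ptpro (0.167), and for Muc1 Il1b (0.104), Ccdc141 (0.181) and Gla (0.205). With 1 count in all, Muc5ac had no profile to match. These are descriptions over 6 libraries that share scaling and, for Muc6, Muc4 and Muc1, the peak of DKO tumour 1.

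Genes beside the mucin clusters had courses of their own. On chromosome 7, Ap2a2, next to Muc6, was at 279 to 297 CPM in WT libraries and 176 to 208 CPM in tumours (log2 fold change -0.56, SE 0.138, edgeR adjusted p = 0.0196), and Tollip, next to Muc5b, at 177 to 240.3 CPM and 118 to 153 CPM (edgeR adjusted p = 0.0491). The Ap2a2 call ended when WT intestine 2 (0.0604), WT intestine 3 (0.0608) or DKO tumour 3 (0.0792) was left out and with library totals (0.13). That of Tollip ended in each of these 6 refits (0.0615 to 0.141), with library totals (0.184) and with upper-quartile factors (0.0699). The peak of DKO tumour 1 that Muc6 showed was not seen in either gene. On chromosome 16, Tnk2 before Muc4 rose from 29.5 to 56.3 CPM in WT libraries to 113 to 141 CPM in tumours (log2 fold change 1.77, SE 0.266, edgeR adjusted p = 0.00295), and Fyttd1 after Muc20 was at 45.3 to 63.7 CPM and 56.6 to 59.1 CPM (edgeR adjusted p = 0.819).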

How the data were processed

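The authors deposited unnormalised counts by gene symbol, with 1 column for each mouse, matched to the samples by column name. Its sheet name speaks of normal DKO tissue but its column headers of DKO tumours, which were used. STAR, DESeq2 and mm10 are named, per the submitters' processing notes. The sources used here do not name the counter, annotation or strand setting. Of 23420 rows, 27 with a date in place of a name were set aside (0.218% to 0.24% of counts), leaving 23393.

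The test covered 13866 genes that reached 10 counts in at least 3 libraries, using edgeR 4.0.16 (quasi-likelihood, TMM, R 4.3.3). SEs are the log2 fold change over the square root of the F statistic. The code was tested on simulated counts. DESeq2 1.42.0 and other scalings, filters, a replicate block and left-out libraries were alternatives. Members and lists were chosen with earlier results of these data known. Named were all mucins, up to 8 called genes of each list with the smallest adjusted p, and fixed mucin partners; markers, neighbours and ratios were added, partly after their values were seen. St3gal1, St6galnac2, B4galnt2 and Galnt2 fell outside that rule and are not described singly. P-values measure the spread between these mice, and the labels name no molecular identifiers, so intervals cover counting error only.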

Additional observations from a re-analysis of the deposited data

How the results depend on the processing

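Calls over all genes (4122) ranged from 1866 (without DKO tumour 3) to 4275 (without DKO tumour 1) with a library left out, and with the genes of all 6 libraries kept they were 2231 without WT intestine 2 and 2060 without DKO tumour 3. Of the mucins, 1 was called, against 0 with library totals or the replicate block, 3 without a filter, and 0 to 1 with a library left out. The 4 pathway lists held 31 calls, and 20 to 35 with a library left out. The log2 fold change of Muc13 was -0.63 with library totals, -0.91 with the replicate block (edgeR adjusted p = 0.0631) and -1.09 to -0.77 with a library left out. With the genes of 6 libraries kept it was -0.83 without WT intestine 2, -0.87 without WT intestine 3, -0.78 without DKO tumour 2 and -0.80 without DKO tumour 3. That of Muc2 was -1.36 to -0.50 with a library left out and -1.37 without DKO tumour 2 with those genes kept, and that of Muc4 was -0.45 to 0.61 and, without DKO tumour 1 with those genes kept, -0.46. Deviations of same-numbered libraries correlated at 0.0138, -0.013 and -0.0334, and not every library correlated best with its own number. Replicate numbers were therefore not used as pairs, though this check cannot exclude that same-numbered mice were handled together. The replicate block gave 3296 calls. Per length of the longest transcript, Muc2 was at 495 CPM per kilobase in WT libraries and 292 in tumours. Depth limits Muc1, Muc5ac, Muc5b and Muc20, with at most 65 counts in any library. The cause of these changes was not tested.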

Other observations

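Mesothelin, a surface protein known in human cells to bind MUC16, was among the genes most raised of a list of 8 mesothelial markers, 6 of which were tested. Msln was at 2.27, 0.393 and 1.30 CPM in WT intestine 1 to 3 and at 49.3, 129 and 196 CPM in DKO tumours 1 to 3 (log2 fold change 6.59, SE 0.684, edgeR adjusted p = 0.000674), the reverse of the order of the tumours for Muc6. Wt1 and Lrrn4, more specific to mesothelium, were at most 0.074 and 0.37 CPM in tumours and at 0.283 to 0.471 and 0.471 to 1.36 CPM in WT libraries. The keratins Krt7 and Krt19 of that list, also made by ductal epithelium, rose (edgeR adjusted p = 0.000158 and 0.00522), as 15.9% of all genes tested did.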
